A study of Mus musculus with 33 samples.

Results

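C57BL/6J (B6J) and C57BL/6N (B6N) are sister substrains of the C57BL/6 mouse that have been bred apart for many generations. They were compared here in forebrain RNA from 4 B6J and 4 B6N libraries, 8 of the 33 samples of the series. Per the labels, B6J mice were of the C57BL/6J strain and hypomorphic for n-Tr20, and B6N mice were of the C57BL/6NJ strain with wild-type n-Tr20. All were 8 weeks old and all 8 libraries belonged to batch 1. A second B6J group of 4 libraries, the same strain, age and batch but carrying the transgene Tg(n-Tr20), is given beside them where it bears on a gene. The remaining samples of the series were forebrain of B6N or B6J mice lacking n-Tr20, 1 further transgenic B6J forebrain library of batch 2, and hippocampus of B6N mice with and without n-Tr20. Every B6J and B6J transgenic library carried the C57BL/6J background with all its variants, so strain and n-Tr20 level cannot be told apart between B6J and B6N. The labels do not say whether each library came from a separate mouse, how the transgene is driven or how many lines were used.

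n-Tr20 is a tRNA of the nervous system that reads the arginine codon AGA, and C57BL/6J is known to carry a variant that impairs its processing. Without enough of it, ribosomes can stall at that codon, and stalled ribosomes can switch on the kinase GCN2, which leads to more of the transcription factor ATF4 and of the amino acid genes it controls. C57BL/6J is also known for a small intronic deletion next to a splice site of Gabra2 and for a deletion of several exons of Nnt, both of which C57BL/6N lacks. n-Tr20 itself was not analysed here.

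Levels are given in CPM, the counts per 1000000 counts of a library, from estimated read counts summed over the transcripts of each gene. Libraries held 14.7 to 21.3 M (M, 1000000) estimated counts in B6J and 20.8 to 24.2 M in B6N. In all 8 libraries the neuronal genes Snap25 (1140 to 1210 CPM) and Syt1 (1180 to 1240 CPM), the cortical gene Slc17a7 (577 to 627 CPM) and the striatal gene Ppp1r1b (128 to 163 CPM) were abundant. The hindbrain markers Gabra6 and Hoxa5 reached at most 0.049 and 0.207 CPM, and Hoxc5 was at 0. The Y-linked gene Ddx3y was at 51.8 to 64.3 CPM in all 8 libraries and the X-inactivation RNA Xist at 1.05 to 1.76 CPM, as in male mice. Choroid plexus RNA was uneven: Ttr was at 429 CPM in library B6J 1 against 0.764 to 1.77 CPM in the other B6J libraries, and at 2.73 to 170 CPM in B6N.

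Of 25151 genes tested with edgeR's quasi-likelihood test, 434 passed an adjusted p of 0.05, which is 1.73% of the genes tested. In B6J 305 of them were higher (1.21%) and 129 lower (0.513%). Most differences were small. The median fold was 1.21 among the higher and 1.23 among the lower genes. Only 42 (0.167% of the genes tested) exceeded 2-fold, 31 higher and 11 lower, and 28 of these had symbols of predicted genes. B6J and B6N libraries did not overlap for 416 of the 434, while 5.42% of all tested genes lay wholly higher and 3.69% wholly lower in B6J. DESeq2 called 566 genes (2.25%). The count depended on the fit and on single libraries. The 8 libraries fitted alone gave 988 calls. Leaving out B6J 2, B6J 4, B6N 1, B6N 3 or B6N 4 left 285, 216, 283, 223 or 226 calls, and a fit that allowed for the lengths of the transcripts in use left 143.

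**Figure D1:**
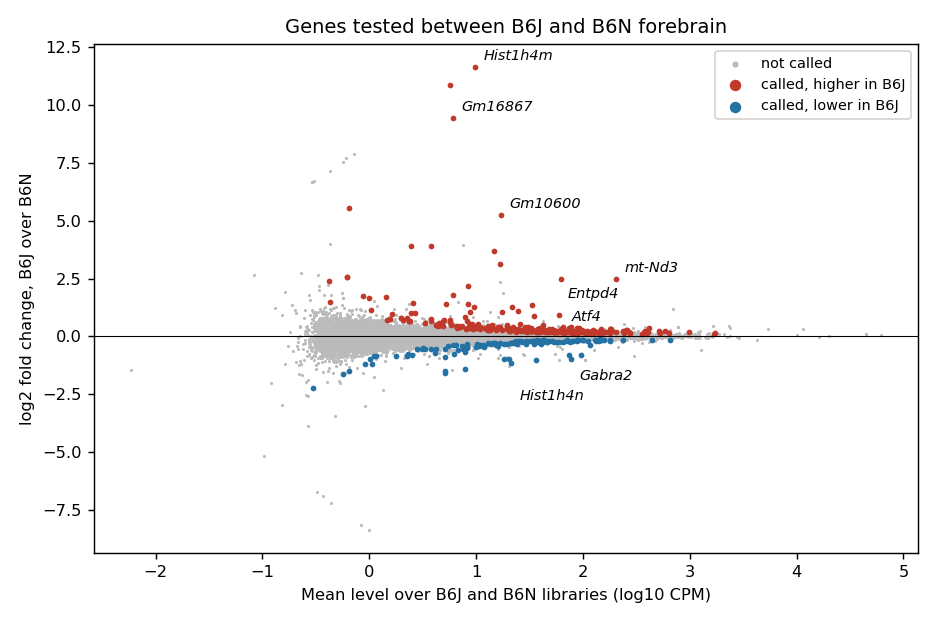
Each point is 1 of 25151 tested genes, with the mean level over B6J and B6N libraries on a log10 scale across and the log2 fold change of B6J over B6N upward; coloured points are the 434 called genes. Most called genes lie close to 0, and a few points stand far out, some of them fitted against B6N libraries without a count (Hist1h4m).

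Gabra2 and Nnt, both with known C57BL/6J variants, fell about 2-fold in B6J, and a pair of other genes from the list of reported substrain differences moved about as far, Wdfy1 down and Entpd4 up. Gabra2 encodes the alpha-2 subunit of the GABA-A receptor, the main fast inhibitory receptor of the brain. It stood at 47.1, 48.6, 54.5 and 54.1 CPM in B6J, against 103, 98.9, 103 and 104 CPM in B6N. The groups did not overlap, and the lowest B6N library was far above the highest B6J library. The log2 fold change was -1.0 ± 0.05 (SE; adjusted p = 3.23e-16). The transgenic libraries read 47.7, 52.0, 52.0 and 52.4 CPM, at the B6J level (log2 fold change to B6N -1.0). In bulk tissue, fewer cells that express a gene and less RNA per cell cannot be told apart.

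Gabra2 was also made up differently. The authors' estimates per transcript, in TPM (transcript levels that allow for transcript length and library size), are given as values without a test. Its protein-coding transcript Gabra2-203 was at 2.96, 3.61, 3.6 and 3.67 TPM in B6J, against 8.87, 7.94, 8.73 and 9.12 TPM in B6N. Its 2 transcripts annotated with a retained intron together read 2.99 ± 0.776 TPM in B6J and 2.22 ± 0.444 TPM in B6N (SD, n = 4 each). So the retained-intron share of all Gabra2 was 26.8, 25.7, 33.7 and 31.3% in B6J, against 11.9, 9.49, 13.9 and 11.8% in B6N. These shares did not overlap either. Most of that came from Gabra2-202, at 15.9, 20.2, 26.5 and 22.3% of the gene in B6J and 5.14, 4.97, 8.18 and 8.53% in B6N. Over all transcripts of the libraries, those with a retained intron took a like share in both groups, 4.39 to 4.74% of counts in B6J and 4.54 to 4.88% in B6N.

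**Figure D2:**
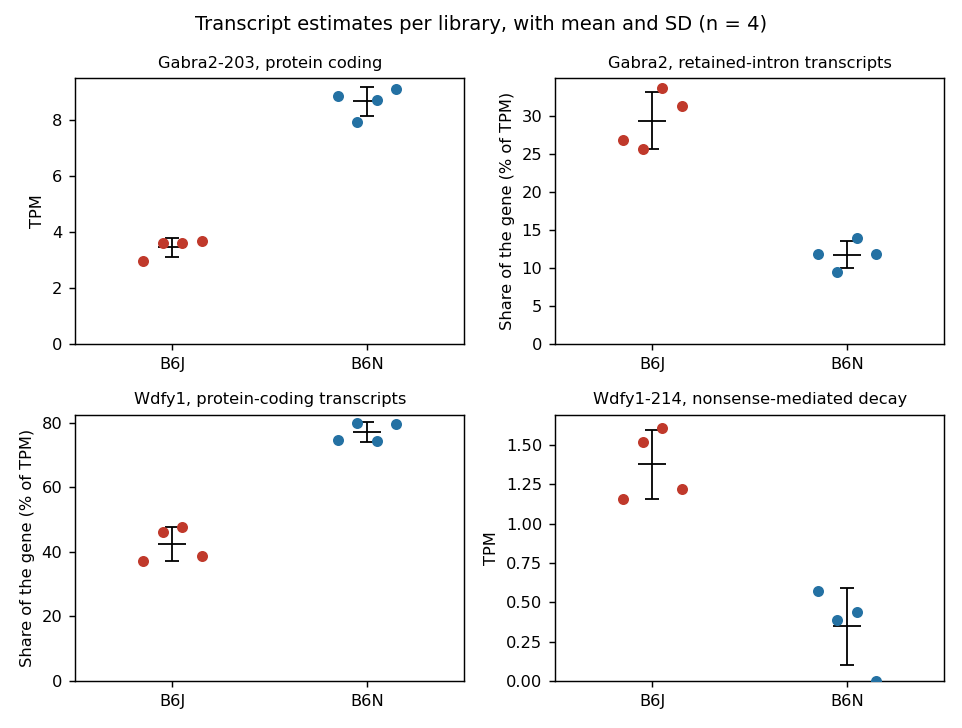
Points are the 4 libraries of B6J (left) and of B6N (right), with mean and SD, for the protein-coding transcript of Gabra2 in TPM, the share of Gabra2 in its retained-intron transcripts, the share of Wdfy1 in its protein-coding transcripts, and the Wdfy1 transcript marked for nonsense-mediated decay in TPM. In each panel the groups do not overlap.

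Of 15 measured GABA-A receptor subunit genes, Gabra2 alone was called, and the median log2 fold change of the 15 was -0.03. Among 17 genes of GABA synthesis, transport and the inhibitory synapse, 2 rose in B6J and none fell (median 0.07), against 1.21% and 0.513% of all genes tested. These were Slc32a1, the vesicular GABA transporter, at 0.35 ± 0.07 (adjusted p = 0.00314), and Iqsec3, a protein of inhibitory synapses, at 0.20 ± 0.04 (adjusted p = 0.00257). The Slc32a1 libraries touched: B6J read 38.4, 33.1, 39.0 and 36.7 CPM, against 29.1, 33.3, 26.9 and 25.9 CPM in B6N, where B6N 2 was just above the lowest B6J library. In transgenic B6J over B6N, a comparison in which 0.366% of genes were called, Iqsec3 was higher (0.20, adjusted p = 0.00495) and Slc32a1 read 0.27 (adjusted p = 0.0694). With a replicate block, Slc32a1 was not called in B6J over B6N, and from protein-coding transcripts alone Iqsec3 was not.

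Nnt encodes the transhydrogenase of the inner mitochondrial membrane, which makes NADPH from NADH. The annotation holds a pair of Nnt gene IDs that share reads. The one named ENSMUSG00000116207 was at 12.6, 12.3, 11.7 and 12.1 CPM in B6J, against 25.6, 20.1, 25.8 and 24.9 CPM in B6N (log2 fold change -0.98 ± 0.15, adjusted p = 0.005). The other was at 8.09, 6.75, 5.94 and 8.63 CPM in B6J and 9.43, 16.5, 9.52 and 9.70 CPM in B6N, and was not called (-0.61 ± 0.23, adjusted p = 0.282). Library B6N 2 stood apart in opposite directions in this pair, and the sum of both was steady: 17.7 to 20.7 CPM in B6J and 34.6 to 36.6 CPM in B6N. The protein-coding transcript Nnt-206 averaged 2.00 ± 0.165 TPM in B6J and 4.26 ± 0.634 TPM in B6N (SD, n = 4 each). Nnt-202, of the second ID, was listed at 0 in every B6J library and at 0.493, 1.19, 0.226 and 0 TPM in B6N.

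Of 19 gene IDs of mitochondrial NADPH and peroxide metabolism, 3 rose and 1 fell, the fall being Nnt (median -0.03). The called share was 21.1%, against 1.73% of all genes tested. The 3 that rose were Mthfd2 and Aldh1l2, mitochondrial folate enzymes that are also ATF4 targets and are described with them, and Me3, the mitochondrial malic enzyme that makes NADPH, at 0.19 ± 0.05 (adjusted p = 0.0219). Me3 lost its call without B6J 2, B6J 3, B6J 4, B6N 1 or B6N 2 (adjusted p up to 0.145), and its difference was -0.02 when protein-coding transcripts alone were counted. Leaving out B6J 1, B6J 4 or B6N 1 left 1 of the 3 rises, and a length offset left none.

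Wdfy1, an endosomal protein that takes part in Toll-like receptor signalling, read 23.2, 24.6, 25.3 and 22.4 CPM in B6J, against 50.4, 48.5, 48.2 and 46.5 CPM in B6N (log2 fold change -1.02 ± 0.05, adjusted p = 6.14e-16). Its transcripts changed places as well. Protein-coding transcripts made up 37.1, 46.0, 47.6 and 38.8% of Wdfy1 in B6J, against 74.6, 80.0, 74.3 and 79.6% in B6N. Several transcripts of the same class, such as Wdfy1-204 and Wdfy1-205, carried identical estimates in every library, so they were not told apart and only class sums are read. The transcript marked for nonsense-mediated decay, Wdfy1-214, was at 1.16, 1.52, 1.61 and 1.22 TPM in B6J, against 0.570, 0.385, 0.436 and 0 TPM in B6N, so it was higher in B6J while the gene's read count was lower. Because TPM allow for length, the summed Wdfy1 level was closer, 7.07 ± 0.589 TPM in B6J and 8.66 ± 0.672 TPM in B6N. With an offset for transcript length the gene-level call ended (-0.19 ± 0.07, adjusted p = 0.297), while Gabra2 kept its call at -0.81.

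Entpd4 encodes a nucleotidase of the Golgi and lysosome. It was at 78.4, 76.8, 78.7 and 80.8 CPM in B6J, against 41.7, 43.7, 41.1 and 39.5 CPM in B6N (0.92 ± 0.04, adjusted p = 3.23e-16). Its copy Entpd4b rose by 0.89 ± 0.05. Several transcripts of the pair carried identical estimates in every library, so reads were split between the copies, and only the sum is secure: 121 to 129 CPM in B6J and 63.1 to 67.7 CPM in B6N.

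The other 5 genes of the list of reported substrain differences were not called. Crb1, a polarity protein of photoreceptors whose known variant belongs to C57BL/6N, was at 2.93 to 3.45 CPM in B6J and 1.89 to 2.69 CPM in B6N (0.44 ± 0.17, adjusted p = 0.244). Adcy5, the adenylyl cyclase of striatal neurons, differed by 0.24 ± 0.09 (adjusted p = 0.24), and Cyfip2, an actin regulator with a known amino acid variant in C57BL/6N, by 0.04 ± 0.05 (adjusted p = 0.814). Nlrp12, a sensor protein of immune cells, was at 0.345 to 0.885 CPM in B6J and 0.528 to 0.809 CPM in B6N (adjusted p = 0.788). Ide, the insulin-degrading enzyme, read 74.5 CPM in B6J 1 and 45.5 to 53.9 CPM in the other 7 libraries (adjusted p = 0.913). In all, 1 of the 10 measured gene IDs of this list rose and 3 fell in B6J, against 1.21% and 0.513% of all genes tested.

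**Figure D3:**
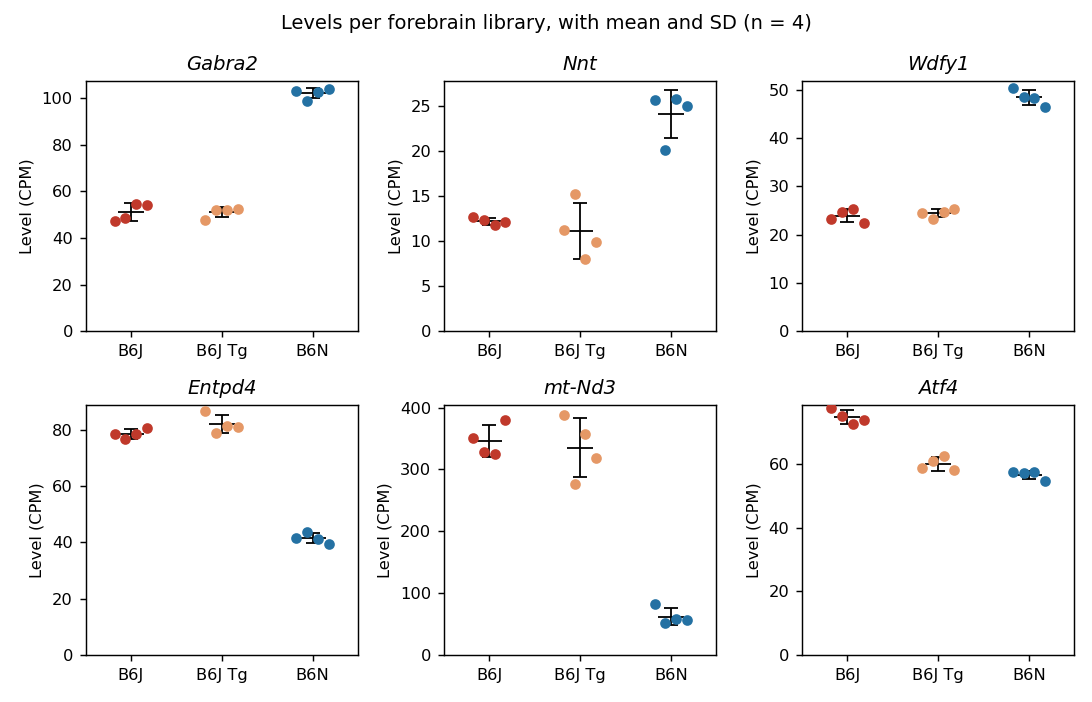
Points give the level in CPM of 6 genes in each library of B6J, B6J carrying the n-Tr20 transgene (B6J Tg) and B6N, with mean and SD; Nnt is gene ID ENSMUSG00000116207. For Gabra2, Nnt, Wdfy1, Entpd4 and mt-Nd3 the B6J Tg libraries lie with B6J, and for Atf4 they lie just above B6N.

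Atf4 and a minority of its known targets were higher in B6J. Atf4 was at 77.5, 75.2, 72.6 and 73.7 CPM in B6J, against 57.4, 57.1, 57.4 and 54.7 CPM in B6N. All B6J libraries lay above all B6N libraries. The difference was 1.32-fold (log2 fold change 0.40 ± 0.04, adjusted p = 9.91e-08), and none of the alternative settings run ended the call. Its protein-coding transcript Atf4-201 was at 20.5 ± 1.73 TPM in B6J and 16.4 ± 0.860 TPM in B6N (SD, n = 4 each). In the transgenic group Atf4 read 58.7, 61.0, 62.6 and 58.0 CPM (0.08 over B6N, adjusted p = 0.553), and B6J was above it by 0.32 (adjusted p = 0.000137). These comparisons share the B6J or the B6N libraries with B6J over B6N, so they are set side by side and not counted as separate evidence.

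The list of ATF4 targets and other integrated stress response genes had 42 measured members. Of them 6 rose, Atf4 itself among them, while 1 fell in B6J over B6N, where 1.21% of all genes tested rose and 0.513% fell. The median log2 fold change of the 42 was 0.07, against -0.0003 over all genes tested. In B6J over transgenic B6J 5 rose, again with Atf4, and none fell (median 0.14). There 0.25% of all genes were called (0.171% higher and 0.0795% lower). In transgenic B6J over B6N none was called (median -0.03), where 0.366% of all genes were called. At so low a share, no call among 42 genes does not show the list to be at the B6N level. Cdkn1a, the cell cycle inhibitor p21, a p53 and stress target, was at 8.34, 11.3, 10.2 and 10.5 CPM in B6J, against 6.81, 4.93, 5.33 and 5.55 CPM in B6N (0.83 ± 0.13, adjusted p = 0.000596). Mthfd2, a mitochondrial folate enzyme, was at 6.08, 4.42, 5.94 and 5.23 CPM in B6J, against 3.62, 3.65, 3.50 and 3.90 CPM in B6N (0.56 ± 0.12, adjusted p = 0.0103). Both stood apart from B6N in every library.

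Slc7a1, the transporter that brings arginine and lysine into cells, was at 45.2, 40.0, 46.3 and 42.7 CPM in B6J, against 37.2, 37.2, 37.3 and 36.5 CPM in B6N (0.23 ± 0.05, adjusted p = 0.0074). Chac1, which breaks down glutathione and is an ATF4 and CHOP target, was low in both strains, at 3.58, 4.09, 3.66 and 4.52 CPM in B6J and 3.33, 2.51, 2.12 and 2.69 CPM in B6N (0.58 ± 0.14, adjusted p = 0.0204). Aldh1l2, a mitochondrial folate enzyme, rose by 0.43 ± 0.10 (adjusted p = 0.0198). Against them Slc7a11, the cystine transporter of the list, fell: 68.2, 67.3, 69.9 and 69.4 CPM in B6J, against 81.2, 76.8, 85.7 and 82.9 CPM in B6N (-0.25 ± 0.05, adjusted p = 0.00982). Of the genes chosen after their values were seen, Asns, asparagine synthetase, was at 0.14 ± 0.05 (adjusted p = 0.145) and Ddit3, which encodes CHOP, at 0.03 ± 0.07 (adjusted p = 0.921).

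Of 20 cytosolic aminoacyl-tRNA synthetase genes, which charge tRNAs and several of which ATF4 induces, 3 rose and 1 fell (median 0.05). Over all genes tested 1.21% rose and 0.513% fell. Yars (tyrosine) averaged 70.6 ± 2.00 CPM in B6J and 60.5 ± 1.29 CPM in B6N, a difference of 0.22 ± 0.04 (adjusted p = 0.00132). Cars (cysteine) rose by 0.22 ± 0.05 (adjusted p = 0.00961) and Gars (glycine) by 0.18 ± 0.04 (adjusted p = 0.015). Hars (histidine) was at 53.2, 54.2, 56.8 and 57.9 CPM in B6J, below the 65.3, 65.4, 65.4 and 63.2 CPM of B6N (-0.23 ± 0.04, adjusted p = 0.00206). No member of the lists of eIF2-alpha kinases and phosphatases (14 genes), ribosome rescue (13), cytosolic ribosomal proteins (77) or RNA polymerase III and tRNA processing (32) was called by edgeR. Of these 136 genes 10 had an unadjusted p under 0.05, where 12.8% of all genes tested had one, and DESeq2 called 1.

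Beyond Atf4 and Cdkn1a, most of these calls rested on single libraries or on the length model. Leaving out B6J 2, B6J 4, B6N 2, B6N 3 or B6N 4 ended the call of Chac1 (adjusted p up to 0.115), B6J 1, B6J 4, B6N 1, B6N 3 or B6N 4 that of Aldh1l2 (up to 0.0838), B6J 1 that of Mthfd2 (0.0505), B6N 3 that of Slc7a11 (0.0547) and B6J 2, B6N 1 or B6N 4 that of Gars (up to 0.0756). With a length offset, Chac1, Mthfd2, Aldh1l2, Slc7a1, Slc7a11, Yars, Cars and Gars were no longer called, while Atf4, Cdkn1a and Hars were.

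**Figure D4:**
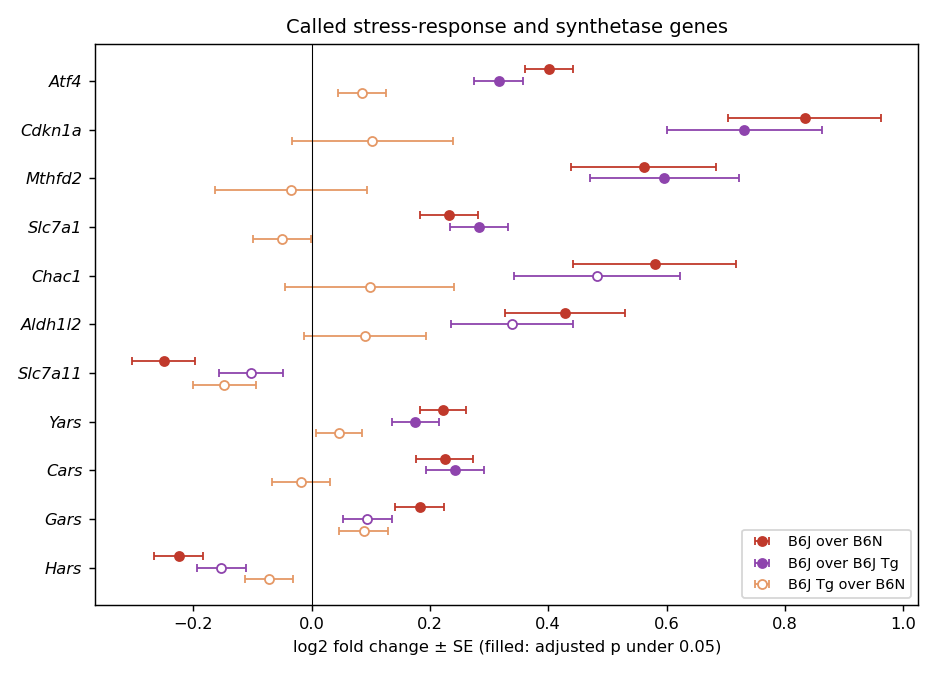
Points are log2 fold changes with SE for the 11 called stress-response and synthetase genes, in B6J over B6N, B6J over transgenic B6J (Tg) and transgenic B6J over B6N; filled points passed an adjusted p of 0.05. In transgenic B6J over B6N no point is filled, and the Atf4 points read 0.40, 0.32 and 0.08.

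ATF4 and its partners of the C/EBP family bind a composite element written here as TGATGNAA, or TTNCATCA on the opposite strand. RefSeq promoters of GRCm38.p6 (250 bases before to 50 after the gene start) were at hand for 8 of the 11 called stress and synthetase genes, and 4 of their 10 promoters held these letters on either strand, against 1304 of 32851 promoters in all (3.97%). The lists these genes come from were drawn up as known ATF4 targets and synthetases, so the shares are not a comparison of like sets. The 4 are printed from 5′ to 3′ on the gene's own strand with the element in capitals, since they are the called genes in which it was found. They lie at chr2:119350992-119351291 on the plus strand (Chac1), chr3:50443564-50443863 on the minus strand (Slc7a11), chr4:129189653-129189952 on the plus strand (Yars) and chr6:55037751-55038050 on the plus strand (Gars).
Chac1: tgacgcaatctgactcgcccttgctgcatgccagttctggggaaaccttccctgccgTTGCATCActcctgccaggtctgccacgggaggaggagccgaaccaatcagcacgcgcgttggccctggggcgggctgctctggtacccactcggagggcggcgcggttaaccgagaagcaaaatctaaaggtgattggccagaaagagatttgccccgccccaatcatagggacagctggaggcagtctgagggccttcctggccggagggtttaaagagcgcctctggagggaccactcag
Slc7a11: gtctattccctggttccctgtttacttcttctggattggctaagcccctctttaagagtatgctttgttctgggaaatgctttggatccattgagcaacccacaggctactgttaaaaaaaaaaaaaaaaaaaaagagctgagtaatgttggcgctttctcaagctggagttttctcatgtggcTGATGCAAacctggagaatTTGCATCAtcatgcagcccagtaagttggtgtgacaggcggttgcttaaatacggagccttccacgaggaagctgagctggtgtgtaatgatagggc
Yars: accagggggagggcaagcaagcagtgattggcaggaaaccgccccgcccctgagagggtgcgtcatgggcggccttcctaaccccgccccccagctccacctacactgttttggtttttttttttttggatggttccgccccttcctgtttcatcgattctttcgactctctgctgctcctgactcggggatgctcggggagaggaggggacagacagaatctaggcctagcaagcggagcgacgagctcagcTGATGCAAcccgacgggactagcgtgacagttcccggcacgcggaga
Gars: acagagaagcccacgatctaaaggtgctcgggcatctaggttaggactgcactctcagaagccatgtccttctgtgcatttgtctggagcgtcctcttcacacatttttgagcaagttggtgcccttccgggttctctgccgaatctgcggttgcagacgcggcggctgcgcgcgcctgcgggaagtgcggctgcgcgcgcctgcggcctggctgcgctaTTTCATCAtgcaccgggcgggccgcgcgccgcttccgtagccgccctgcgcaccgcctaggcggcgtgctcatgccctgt
Counted from the start that each RefSeq promoter is built on, which need not be the outermost start of the gene, the element began 193 bases before that of Chac1, 66 and 47 bases before that of Slc7a11, 30 bases before that of Gars and 3 bases after that of Yars. It stood in promoters of 3 genes that were higher in B6J and in that of Slc7a11, which was lower. A match of letters is not a site in use, and promoters of Atf4, Cdkn1a, Slc7a1 and Mthfd2 in this window did not hold them.

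Several of the largest differences lay side by side on chromosomes. Of the 434 called genes 382 could be placed through RefSeq symbols on GRCm38.p6, and 12 windows of up to 1 Mb held at least 3 called genes. Each window was drawn around its called genes, and tested genes were counted between the first and last called start. The called shares of the windows are therefore high by construction. The window on chromosome 18 held 4 called of 61 tested genes. How many windows gene order alone would give was not tested. On chromosome 14, all 5 genes tested at chr14:69337151-69640470 were called and all were higher in B6J. They are Entpd4, Entpd4b and 3 predicted genes. Gm16867 was at 9.61, 9.73, 15.3 and 13.4 CPM in B6J and had a count in only 1 of the B6N libraries, 0.0407 CPM in B6N 3. Gm27177 was at 14.8, 15.2, 12.2 and 13.0 CPM in B6J, against 3.05, 2.29, 3.30 and 3.40 CPM in B6N, and Gm21451 at 0.622 to 1.82 CPM in B6J and at most 0.0814 CPM in B6N. The transgenic libraries resembled B6J here, with Gm16867 at 10.4 to 15.1 CPM.

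At chr4:41893448-42874246, 8 of 20 tested genes were called, 7 higher and 1 lower. The strongest was Gm10600, at 32.7, 34.0, 30.2 and 37.4 CPM in B6J, against 1.29, 1.06, 0.244 and 0.995 CPM in B6N, 38-fold higher. Gm5859 was at 27.4 to 33.6 CPM in B6J and 2.73 to 4.14 CPM in B6N, and Gm3883 at 45.0 to 51.1 CPM in B6J and 16.1 to 20.7 CPM in B6N. Gm13302 and Gm17081 rose by 3.89 each and Fam205a4, of a family of repeated genes, by 1.03 ± 0.14. Fam205c, a relative in the same window, was lower (-0.44 ± 0.10, adjusted p = 0.0254), and 4930578G10Rik was higher (0.65 ± 0.14, adjusted p = 0.0228). Those last 2 calls ended without any of several libraries: B6J 1, B6J 2, B6J 3, B6N 2, B6N 3 or B6N 4 for Fam205c (adjusted p up to 0.1), and B6J 2, B6J 4, B6N 1, B6N 2 or B6N 3 for 4930578G10Rik (up to 0.0881). The other 12 genes tested there were not called, among them the chemokines Ccl19 (0.05) and Ccl21a (-0.23). Of these 12, Ccl27b, Fam205a2 and Fam205a3 had no count in B6N and averaged 0.858, 0.581 and 0.581 CPM in B6J.

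At chr17:5492562-6450994, 5 of 10 tested genes were called, 2 higher and 3 lower. The lower ones belong to a stretch of repeated genes: Tmem181a (-0.37 ± 0.04), the related pseudogene Tmem181b-ps (-0.81 ± 0.10) and Dynlt1b, a light chain of the dynein motor (-0.66 ± 0.11). A further relative, Tmem181c-ps, was at 2.60, 2.60, 2.49 and 2.64 CPM in B6J, against 6.67, 8.71, 7.41 and 8.04 CPM in B6N, the largest fall of all named genes at 2.98-fold. The sum of the 3 Tmem181 genes was 150 to 163 CPM in B6J and 201 to 252 CPM in B6N. Such copies share reads, so values of single copies are uncertain. The same 4 genes were also lower in B6N lacking n-Tr20 than in B6N, a comparison that shares the B6N libraries: Tmem181a by -0.42 (adjusted p = 2.75e-07), Tmem181b-ps by -0.98 (adjusted p = 0.000112), Dynlt1b by -0.85 (adjusted p = 1.27e-05) and Tmem181c-ps by -0.46 (adjusted p = 0.0416). In transgenic B6J over B6N, which shares them too, Tmem181a read -0.42, Tmem181b-ps -0.77 and Dynlt1b -0.72. These 4 were not the only such genes. In B6N lacking n-Tr20 over B6N, Atf4 read 0.706 (adjusted p = 3.29e-13) and Mthfd2 0.955 (adjusted p = 4.02e-06). Cort read 1.27 (adjusted p = 1.9e-06) and Hars -0.259 (adjusted p = 0.000253), also the B6J way. Gabra2 (0.0971, adjusted p = 0.331), Entpd4 (-0.0014, adjusted p = 0.996) and Ndn (0.0392, adjusted p = 0.89) were not called there. Syt2 went the other way (-0.292, adjusted p = 0.0234). The part of n-Tr20 in any of these differences was not tested. None of 11 tested genes within 500 kb of n-Tr20 (n-TRtct5, chr1:173390329-173390402) was called in edgeR, among them Aim2 (0.29, adjusted p = 0.23) and Cadm3 (0.06, adjusted p = 0.622). Of the 11, 1 had an unadjusted p under 0.05, against 12.8% of all genes tested, and DESeq2 called 0.

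**Figure D5:**
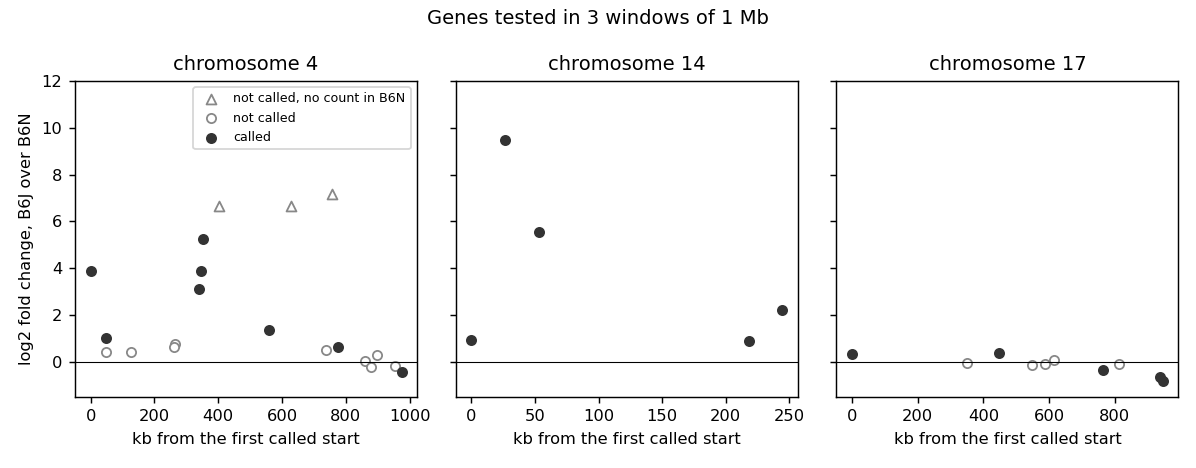
Points are the genes tested in windows on chromosomes 4, 14 and 17, with the distance of their starts from the first called start in kb across and the log2 fold change of B6J over B6N upward; filled points are called. All 5 genes of the chromosome 14 window are filled and above 0, and the triangles on chromosome 4 are genes without a count in B6N, whose fitted values are not bounds.

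Among the largest folds of genes that could not be placed were a pair of histone H4 genes that moved in opposite directions. Hist1h4m was at 20.7, 16.8, 24.7 and 16.3 CPM in B6J and without a count in every B6N library. With each B6N library set to 3 counts the fold would be 137, but this floor covers counting error only. Hist1h4n was at 14.7, 15.1, 12.6 and 9.63 CPM in B6J, against 29.5, 32.1, 27.9 and 27.5 CPM in B6N (-1.16 ± 0.09, adjusted p = 9.91e-08). Their sum overlapped, at 35.5, 31.9, 37.3 and 25.9 CPM in B6J and 29.5, 32.1, 27.9 and 27.5 CPM in B6N. They were the only called genes of 60 measured replication-dependent histone genes (median 0.06), a share of 3.33% against 1.73% of all genes tested. Histone H4 copies share reads, so the fold of a single copy is not secure and the floor does not bound it. The predicted gene Gm21541 was likewise without a count in B6N and at 10.3 to 12.9 CPM in B6J, 80.6-fold higher by the same floor. Gm13301 was at 25.8 to 31.6 CPM in B6J and 1.82 to 2.99 CPM in B6N, and Gm38378 at 0.834 to 1.38 CPM in B6J and 0.0814 to 0.373 CPM in B6N.

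The lower genes at the far end included the non-coding gene AC102496.1, at 1.73 to 3.26 CPM in B6J and 6.51 to 8.45 CPM in B6N (-1.5 ± 0.17, adjusted p = 5.61e-06), and Gm19210 (-1.18 ± 0.25, adjusted p = 0.00896). Gm4070 (-1.40 ± 0.29, adjusted p = 0.0336), Gm3160 (-0.97 ± 0.25, adjusted p = 0.0349) and Car13, a cytosolic carbonic anhydrase (-1.20 ± 0.31, adjusted p = 0.0359), also fell. Each of these last 3 calls ended without B6J 2, B6J 4, B6N 2, B6N 3 or B6N 4, and in 6 or 7 of the 8 fits that left out a library (adjusted p up to 0.157).

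mt-Nd3, a subunit of respiratory complex I encoded in the mitochondrial genome, was at 351, 328, 324 and 380 CPM in B6J, against 82.3, 51.0, 58.7 and 55.7 CPM in B6N (2.48 ± 0.16, adjusted p = 2.98e-06). Of the 15 protein and rRNA genes of the mitochondrial genome only mt-Nd2, another complex I subunit, was also called (0.24 ± 0.05, adjusted p = 0.00626), and it was not called when the 8 libraries were fitted alone. The median of the 15 was 0.09. Mitochondrial transcripts together took 8.75 to 10.6% of counts in B6J and 9.11 to 9.88% in B6N. Of 52 nuclear genes of oxidative phosphorylation 1 fell, Cox6b1, of complex IV (-0.16 ± 0.04, adjusted p = 0.026), a share near the 1.73% of all genes tested. In the transgenic libraries mt-Nd3 was at 277 to 388 CPM.

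Ndn encodes necdin, an imprinted growth suppressor of neurons. It was at 67.6, 72.0, 72.4 and 66.8 CPM in B6J, against 126, 128, 116 and 112 CPM in B6N (-0.79 ± 0.07, adjusted p = 6.65e-06). None of the other 7 measured imprinted genes of its region was called, and the median of the 8 was 0.08. The transgenic libraries were at 60.1 to 82.0 CPM, below every B6N library.

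A minority of synapse and channel genes rose in B6J, by small amounts. Of 44 genes of vesicle release 5 rose and none fell (median 0.05), of 50 glutamate receptor and scaffold genes 5 rose and none fell (median 0.06), of 51 potassium channel genes 4 rose and none fell (median 0.07), and of 30 sodium, calcium and HCN channel genes 2 rose and none fell (median 0.07). These medians compare with -0.0003 over all genes tested. Pclo, a scaffold of the presynaptic active zone, averaged 417 ± 8.78 CPM in B6J and 362 ± 12.4 CPM in B6N (0.20 ± 0.04, adjusted p = 0.00475). Rims1, its partner in vesicle priming, rose by 0.17 ± 0.04 (adjusted p = 0.00745) and Sv2c, a vesicle protein enriched in basal ganglia, by 0.30 ± 0.06 (adjusted p = 0.00427).

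Among the glutamate receptor and scaffold genes, Cacng2, the AMPA receptor partner stargazin, was at 34.9, 35.2, 36.0 and 36.4 CPM in B6J, against 29.2, 27.7, 29.6 and 30.3 CPM in B6N (0.28 ± 0.05, adjusted p = 0.00289). Grin2b, an NMDA receptor subunit, rose by 0.17 ± 0.04 and Grm4, a presynaptic metabotropic receptor, by 0.40 ± 0.09. Among potassium channels, Kcnc1, which lets neurons fire fast, rose by 0.22 ± 0.05, and Kcna1, of axons, by 0.19 ± 0.04. Further called members were Rph3a, Syt2, Dlgap4, Shank2, Kcnma1, Cacna1a and Cacna1h, at 0.12 to 0.30. Without B6N 4 the rises numbered 3 of vesicle release, 2 of glutamate synapses, 1 potassium channel and 1 calcium channel, and neither Cacna1a nor Cacna1h was among them. Without B6J 4 they were 4, 3, 3 and 0, and without B6N 3 they were 3, 4, 3 and 0. Without B6J 2, no sodium, calcium or HCN channel gene was called. With a length offset the rises were 2, 1, 1 and 0, and with the 8 libraries fitted alone 11, 11, 12 and 8.

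All 18 measured markers of striatal projection neurons had a positive log2 fold change (median 0.27), and 4 were called (22.2%, against 1.73% of all genes tested). Drd2, the dopamine D2 receptor, was at 20.9, 20.3, 23.2 and 25.6 CPM in B6J, against 17.4, 17.8, 14.4 and 14.7 CPM in B6N (0.48 ± 0.10, adjusted p = 0.0129). Drd1 rose by 0.31 ± 0.07 (adjusted p = 0.0162), and the neuropeptide genes Tac1 and Pdyn of the same neurons by 0.34 ± 0.06 (adjusted p = 0.00262) and 0.33 ± 0.07 (adjusted p = 0.0054). The summed level of the 18 was 1518 to 1703 CPM in B6J and 1324 to 1423 CPM in B6N. Leaving out B6J 4, B6N 3 or B6N 4 left 2 calls, Drd1 and Drd2 being lost (adjusted p up to 0.0592), and leaving out B6J 3 left 3, without Drd1. The part of striatal content in the synaptic and channel differences was not tested.

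Of 16 cortical markers 1 was called, Lamp5, a membrane protein of cortical neurons (0.25 ± 0.05, adjusted p = 0.0139), and not without B6J 2 or B6N 3 (adjusted p up to 0.0658). The cortical sum was 2130 to 2171 CPM in B6J and 2092 to 2205 CPM in B6N. For the counts of calls given here, 1.21% of all genes tested were called higher and 0.513% lower. Of 18 interneuron markers 3 rose (sum 1079 to 1152 CPM in B6J and 1003 to 1084 CPM in B6N). All 15 oligodendrocyte markers had positive values with none called (median 0.11; sum 3427 to 4102 CPM in B6J and 2981 to 3568 CPM in B6N). All 12 meningeal markers had negative values (median -0.41), and 2 fell, Ogn (-0.61 ± 0.13, adjusted p = 0.0113) and Dcn (-0.35 ± 0.09, adjusted p = 0.0257), both proteoglycans of connective tissue. The meningeal sum was 92.0 to 120 CPM in B6J and 126 to 157 CPM in B6N. Leaving out B6J 2, B6J 3 or B6N 2 left 1 meningeal call, as did leaving out B6J 4; without B6N 4 none was left, and without B6J 1 there were 5. No marker of astrocytes, oligodendrocyte precursors, microglia, vessels, choroid plexus, hippocampus, thalamus, hypothalamus, olfactory bulb, hindbrain, blood or lymphocytes, and no pan-neuronal gene, was called by edgeR. Among the 132 genes of these 13 lists 11 had an unadjusted p under 0.05, against 12.8% of all genes tested, and DESeq2 called 2. The 6 olfactory bulb markers had a median log2 fold change of 0.46. The part of any of these cell types in the other results was not tested.

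Among neuropeptide genes, Cort, the cortistatin gene of cortical interneurons, was highest relative to B6N, at 3.77, 3.21, 3.25 and 3.00 CPM in B6J, against 2.05, 1.36, 1.87 and 1.33 CPM in B6N, 2.01-fold higher (1.01 ± 0.16, adjusted p = 0.0002). The groups did not overlap, and the transgenic libraries lay between them at 2.17 to 2.77 CPM. Of 23 measured neuropeptide genes 4 rose and none fell (median 0.20), against 1.21% and 0.513% of all genes tested. Besides Cort, Tac1 and Pdyn these included Crh, the corticotropin-releasing hormone gene, at 2.30 to 3.38 CPM in B6J and 1.71 to 2.16 CPM in B6N (0.64 ± 0.16, adjusted p = 0.0301). Without B6J 2, B6J 3, B6J 4, B6N 1, B6N 3 or B6N 4, Crh was not called (adjusted p up to 0.115).

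Smaller groups held 1 to 3 calls each, where 1.21% of all genes tested were called higher and 0.513% lower. Of 26 mTORC1 pathway genes 2 rose: Irs2, an adaptor of insulin signalling (0.24 ± 0.05, adjusted p = 0.00563), and Rptor, the scaffold of the complex (0.23 ± 0.06, adjusted p = 0.0303). Irs2 was at 65.6, 62.9, 63.3 and 70.7 CPM in B6J, 55.9, 53.3, 57.4 and 55.9 CPM in B6N, and 50.7 to 54.1 CPM in the transgenic libraries. Of 19 glucocorticoid-induced genes 3 rose: Cdkn1a, Zbtb16 (0.29) and Klf9 (0.18), the last pair transcription factors. Of 36 immediate early genes of neurons 2 rose and 1 fell (median -0.15): Vgf (0.47), the growth factor gene Bdnf (0.28), and Ier2 (-0.73). The number of falls among them was 8 with DESeq2, 7 without robust estimates and 6 without B6J 1, and no rise was called without B6J 2, B6J 3, B6J 4, B6N 1 or B6N 4. Of 22 clock genes Arntl, which encodes the activator BMAL1, rose by 0.37, and of 20 chaperone genes of the endoplasmic reticulum Creld2 by 0.32. Of these calls Irs2 and Cdkn1a held without each library in turn. The other 8 new ones, and Cox6b1, were all lost without B6J 4, and each in 4 to 7 of the 8 fits that left out a library (adjusted p up to 0.189). None of 28 genes of sterol and fatty acid synthesis was called by edgeR, where 7 had an unadjusted p under 0.05, against 12.8% of all genes tested, and DESeq2 called 0.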

How the data were processed

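Per the labels' protocols, total forebrain RNA lost its ribosomal RNA before libraries that keep strand were made. The authors deposited estimated counts (expected counts, not whole), TPM and effective lengths for 138835 transcripts per library. The submitters' processing notes list Bowtie2 2.2.3, HISAT2 2.1.0, featureCounts and kallisto 0.42.4, with no roles. Here estimated counts were summed per gene and rounded to whole numbers (54752 genes). The 16 forebrain libraries of batch 1 (4 each of B6J, transgenic B6J, B6N and B6N lacking n-Tr20) shared 1 fit in edgeR 4.0.16 (R 4.3.3), with TMM factors, a low-count filter (filterByExpr, minimum 10) and the robust quasi-likelihood F test. Tests were two-sided, with Benjamini-Hochberg adjustment over 25151 genes and calls at 0.05. DESeq2 1.42.0 was an alternative. The fit was tested on simulated data with 50 changed genes at each fold, all drawn from genes with a mean of 1 CPM or more. Recovery below that level was not tested. It recovered 24% of 1.2-fold, 76% of 1.5-fold, 92% of 2-fold and 98% of 3-fold changes, and called 12 unchanged genes. Errors of CPM and TPM are SD, and errors of log2 fold changes are SE. The alternatives and their effects are given in the closing section.

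Named genes were those of the list of reported substrain differences, the called members of each list (at most 5) with abundant uncalled ones where few were called, the 10 largest folds each way among called genes at 1 CPM or more whose libraries did not overlap, groups of at least 3 called genes within 1 Mb, and neighbours of n-Tr20 within 500 kb. Others are said to be chosen after their values were seen. The members, the 43 lists and the rules were chosen with earlier results of these data known. As the labels name no separate mice, p-values measure only the spread between libraries. Chi-square over degrees of freedom was 2.93 to 15.2 between libraries of the same group, so none was counted as a duplicate. Floors of 3 counts cover counting error only. Sequences and positions are from RefSeq, GRCm38.p6. The other samples of the series were not used here, and some called or tested genes are not reported by name.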

Additional observations from a re-analysis of the deposited data

Results flagged for a closer look

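Among 198 sets of 4 libraries behind the genes printed above, 16 had a library far from the other 3 by Dixon's test, where chance gives about 1 in 20. Library B6N 2 read 16.5 CPM for 1 Nnt gene ID (others at most 9.7) and 20.1 CPM for the other (others at least 24.9), 50 CPM for Cacna1h (others at most 43.4) and 2.99 CPM for Gm13301 (others at most 1.91). Library B6N 4 was low for Atf4 (54.7 CPM, next 57.1), Slc7a1 (36.5, next 37.2), Hars (63.2, next 65.3) and Shank2 (114, next 118). Library B6N 1 was low for Tmem181b-ps (73.8 CPM, next 100) and high for Aim2 (4.62, next 4.36). Library B6N 3 alone had counts of Gm16867 (0.0407 CPM) and Gm21451 (0.0814 CPM) in that group. Library B6J 1 was high for Ttr (429 CPM, next 1.77) and Syt2 (52.3, next 46.1). Library B6J 4 was high for Gm13301 (31.6 CPM, next 26.6) and Fam205c (15.6, next 13.0). No cause of these values was tested.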

How the results depend on the processing

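Calls numbered 434 as reported, 988 with the 8 libraries fitted alone, 977 with a replicate block added to that, 143 with a transcript length offset and 216 to 426 without 1 library. Higher calls (305 as reported) were 682, 684 and 99 under the first 3 of these, 187 from protein-coding transcripts alone and 152 to 270 without 1 library. Lower calls (129 as reported) were 306, 293 and 44 under the first 3 and 64 to 159 without 1 library. The length offset kept 120 of the 434 genes and the 8 alone kept 428. Deviations of log CPM from the group mean correlated at 0.272, 0.03, 0.16 and 0.319 between same-numbered libraries. Libraries 1 and 2 correlated positively across the strains (0.03 to 0.461), as did 3 and 4 (0.16 to 0.41). Pairs across these sets were all negative (-0.412 to -0.074). No cause of this pattern was tested. Each B6J library was closest to a B6N library of another number, as B6J 1 to B6N 2 (0.461). The numbers were therefore not taken to pair the samples. Among the called genes named, the replicate block ended the call of Slc32a1 alone.

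Of 88 called genes named, 51 kept their call without each library in turn and 39 under every alternative that gave a value. RLE scaling ended 1 call, DESeq2 1, a fit without robust estimates 9, no filter 4, protein-coding transcripts alone 14 and the length offset 41; a minimum count of 30 ended 0. The sign turned for Me3 (-0.02, protein-coding transcripts alone) and for uncalled genes without 1 library: Ide ran over -0.11 to 0.17 and Ddit3 over -0.02 to 0.07 (-0.01 without B6N 4). The cause was not tested. Libraries of 14.7 to 24.2 M counts, 4 a group, limit how small a difference can be called, so an uncalled gene is not shown to be equal.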

Other observations

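Several of the calls with the smallest adjusted p lay in no list; the genes named here were chosen after their values were seen. Rapgef4, an exchange factor that answers to cyclic AMP, was at 447, 461, 470 and 474 CPM in B6J, against 364, 356, 367 and 378 CPM in B6N (0.34 ± 0.04, adjusted p = 3.33e-07, edgeR). Adar, which edits adenosine to inosine in double-stranded RNA, was at 167, 158, 166 and 168 CPM in B6J, against 134, 135, 129 and 129 CPM in B6N (0.32 ± 0.04, adjusted p = 4.89e-06). Arrb1, a beta-arrestin that quiets receptors, rose by 0.27 ± 0.04 (adjusted p = 6.49e-05) and read 0.17 with a length offset (adjusted p = 0.207). In B6J over transgenic B6J, which shares the B6J libraries, Rapgef4 stood at 0.25 (adjusted p = 0.000527), Adar at 0.28 (adjusted p = 0.000416) and Arrb1 at 0.18 (adjusted p = 0.0232). In transgenic B6J over B6N Rapgef4 read 0.08 and Adar 0.04, and neither was called.

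Other genes, chosen in the same way, were also higher in B6J than in B6N. Syt6, a synaptotagmin, averaged 30.1 ± 2.97 CPM in B6J and 21.0 ± 1.35 CPM in B6N (SD, n = 4 each; 0.52 ± 0.07, adjusted p = 6.56e-05), and stood at 0.37 in transgenic B6J over B6N (adjusted p = 0.00987). Crhbp, which binds corticotropin-releasing hormone, averaged 10.5 ± 0.9 CPM in B6J and 7.19 ± 0.437 CPM in B6N (0.55 ± 0.09, adjusted p = 0.000834). Oprd1, the delta opioid receptor, averaged 22.5 ± 1.94 CPM in B6J and 17.3 ± 1.14 CPM in B6N (0.37 ± 0.07, adjusted p = 0.00161). Rapgef4, Adar, Arrb1, Syt6, Crhbp and Oprd1 all kept their calls without each library in turn.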
